A study of Drosophila melanogaster with 2 samples.

Results

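The protein encoded by CG31388, a member of the ZAD zinc finger family of *Drosophila melanogaster*, had 576 reproducible peaks that lay inside introns and away from promoters. They were 30.8% of its 1872 reproducible peaks (95% exact binomial interval 28.7 to 32.9). A peak was counted here when its summit lay more than 500 bp from every annotated transcription start site (TSS), inside an annotated gene and outside every exon. The peaks came from ChIP-seq of mixed-sex whole embryos collected at 0 to 16 hours of age, from 1 transgenic line that stably expresses CG31388 with green fluorescent protein (GFP) at its C-terminus, precipitated with an antibody against GFP. The 2 libraries, biological replicates 2 and 4, form 1 group, so the comparisons are between places in the genome and between the 2 libraries. Because whole embryos were used, the cell types behind a peak cannot be told apart. Read depth is unknown, and intervals on shares cover counting error only.

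The comparison set was the 10749 intronic candidate regions that met the same rule and were not reproducible peaks. Candidates come from the deposited list of the pooled libraries, which can hold background. The 576 peaks were 5.09% of all 11325 intronic candidates, against 6.51% for candidates of every kind. The reproducible peaks are the 1872 strongest pooled regions by signal, so that differences in signal between the sets follow from how the peaks were chosen. Signal is the value, of unstated scale, that the authors deposited for each region.

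Introns of fly developmental genes hold many of the enhancers that set where and when a gene is expressed, and long first introns are a common place for them. ZAD proteins carry a zinc-finger-associated domain, through which they pair, before a row of zinc fingers that bind DNA. Several members of the family act in chromosome architecture, where they bind insulators and promoters.

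Most of the strongest intronic peaks had summits rich in A and T. The bases within 50 bp of the 6 strongest summits are shown to let the runs of A and T be seen, together with windows centred 300 bp to each side of the *ush* summit. All are on the plus strand of dm6, read from the RefSeq genome, and capitals mark the longest run of A and T in each window, the first where several are equal. The windows are chr2L:481025-481125 for the *ush* summit, chr2L:480725-480825 and chr2L:481325-481425 for its flanks, chr2L:6612678-6612778 for CG11050, chr3R:11760982-11761082 for *Lk6*, chrX:3742166-3742266 for *Tlk*, chrX:4910312-4910412 for CG32772 and chr2L:3302149-3302249 for CG9663.
ush summit: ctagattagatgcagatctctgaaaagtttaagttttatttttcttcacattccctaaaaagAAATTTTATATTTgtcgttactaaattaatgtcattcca
ush left flank: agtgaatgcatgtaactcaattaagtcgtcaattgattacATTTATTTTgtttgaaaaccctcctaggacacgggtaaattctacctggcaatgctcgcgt
ush right flank: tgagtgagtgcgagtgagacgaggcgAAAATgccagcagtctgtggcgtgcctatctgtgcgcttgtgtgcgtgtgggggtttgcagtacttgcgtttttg
CG11050 summit: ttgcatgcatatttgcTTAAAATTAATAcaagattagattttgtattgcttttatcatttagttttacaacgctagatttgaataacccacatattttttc
Lk6 summit: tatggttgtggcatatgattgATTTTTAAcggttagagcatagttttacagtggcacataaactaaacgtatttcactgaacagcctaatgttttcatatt
Tlk summit: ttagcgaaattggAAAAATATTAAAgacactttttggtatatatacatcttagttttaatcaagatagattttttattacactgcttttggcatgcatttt
CG32772 summit: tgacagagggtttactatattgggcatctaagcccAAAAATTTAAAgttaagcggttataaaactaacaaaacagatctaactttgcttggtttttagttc
CG9663 summit: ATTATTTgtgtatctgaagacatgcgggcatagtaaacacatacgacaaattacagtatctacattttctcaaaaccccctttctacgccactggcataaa

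The *ush* summit window had a GC content of 25.7%, and its flanks had 38.6% and 55.4%. CG11050 and *Tlk* had 24.8% at the summit, *Lk6* and CG32772 32.7%, and CG9663 37.6%. The longest run of A and T was 13 bases at the *ush* summit, 12 at CG11050 and *Tlk*, 11 at CG32772, 8 at *Lk6* and 7 at CG9663, with 9 and 5 in the *ush* flanks. Over all 576 peaks the median longest run was 10 bases at the summit and 7 in windows centred 300 bp to each side, and it was 9 at the summits of the other intronic candidates.

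The strongest intronic peak was in intron 1 of *ush* (2L:480916-481251), which encodes a cofactor of GATA factors, with a pooled signal of 683 and signals of 243 in replicate 2 and 441 in replicate 4. It ranked 2 among all regions in each replicate. Its nearest TSS, 1387 bp away, was that of *cbt*, a zinc finger transcription factor gene, and the nearest *ush* TSS was 4855 bp away. The second had its summit in an intron of only 140 bp in CG11050 (2L:6612557-6612865), and its region is wider than that intron. Its pooled signal was 522, with 179 and 345 in replicates 2 and 4. *Lk6*, a kinase that phosphorylates the translation factor eIF4E, followed with 439 in the pooled list (3R:11760906-11761202), 168 in replicate 2 and 279 in replicate 4. *Tlk*, the Tousled-like kinase, had 355 (X:3742092-3742345), with 147 and 207 in the replicates. Signals of these 4 peaks were higher in replicate 4 than in replicate 2, but each replicate's signal has its own scale, so ranks are compared further on.

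The other 8 of the 12 strongest had pooled signals from 348 down to 260. They lay in CG32772, CG9663, *Trl*, which encodes the GAGA factor, the transcription factor gene *Adf1*, *chif*, a Dbf4-like regulator of DNA replication, *HmgZ*, a high mobility group protein gene, CG9837 and *NFAT*. The *Trl* peak (3L:14759378-14759668) had a signal of 319 and lay 1526 bp from the nearest TSS, and the *chif* peak (2L:16351133-16351384) had 284 at 978 bp. Each of these 12 peaks lay within 2319 bp of a TSS. The median pooled signal of the 576 peaks was 74.7, with quartiles of 62.8 and 99.1. The 3 weakest were in *Cyt-c-p*, *Spec2* and *rols*, at 53.9, 53.9 and 53.8, and candidates just outside the reproducible list lay in CG12535 and CG43658, at 53.7 and 53.6.

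The fall in GC content at the summit was narrow. The mean GC content of the intronic peaks, in steps of 20 bp, was 30.8% at the summit, rose to 45.1% at 180 bp from it, and was 40.3% from 900 bp onwards. In the other intronic candidates it was 38.5% at the summit. The median over single peaks was 31.7% within 50 bp of the summit (30.7 to 31.7) and 44.1% in the 2 flanks (43.6 to 45.0), against 39.6% at the summit of the other candidates. The summit window was lower in GC than both its flanks in 428 of the 576 peaks (74.3%, 70.5 to 77.8) and higher than both in 40 (6.94%). It was lower than both in 36.5% of the other candidates and 61.1% of their 576 strongest, and higher than both in 28.5% and 14.8%. Promoter peaks had a mean of 31.5% at the summit and intergenic peaks 33.5%, so that the intronic peaks shared the fall with the other reproducible peaks. How GC content acts on the recovery and alignment of reads was not tested.

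**Figure D1:**
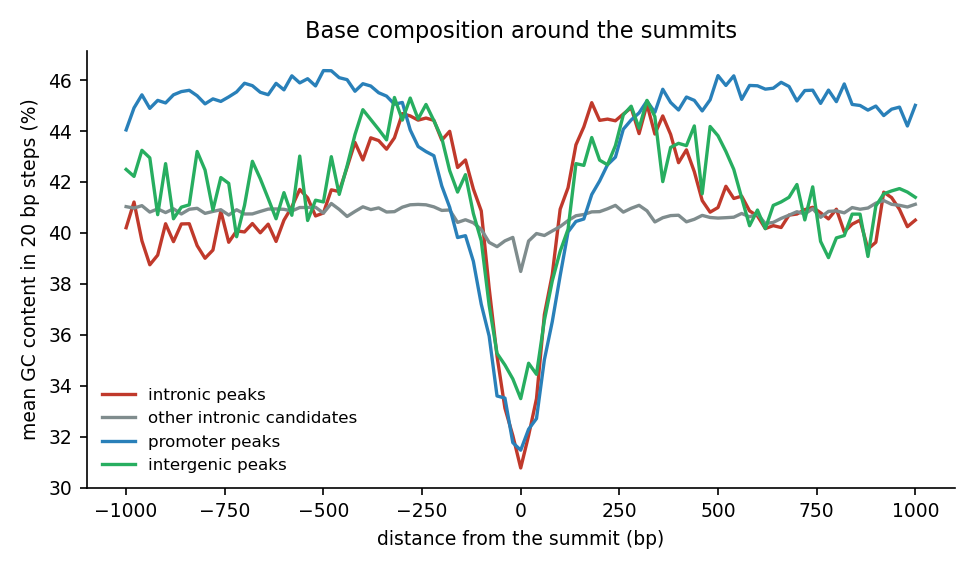
Mean GC content (%) in 20 bp steps against distance from the summit (bp) for the 576 intronic peaks, the 10749 other intronic candidates, the promoter peaks and the intergenic peaks. The intronic peaks fall to 30.8% at the summit, while the other candidates reach 38.5%.

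The composition changed with signal and did not step at the edge of the reproducible list. By pooled rank, the median GC content at the summit of intronic candidates was 29.7% for ranks 1 to 500 (28.7 to 30.7) and 31.7% for ranks 501 to 1872. It was 35.6% for ranks 1873 to 5000 (34.7 to 36.6) and 39.6% for ranks 5001 to 10000, where it equalled the 39.6% of intron positions taken every 200 bp under the same rule. The 144 weakest of the reproducible intronic peaks had a median of 33.7% (30.7 to 35.6), and the 576 strongest of the other candidates 34.7% (33.7 to 35.6). Across the 576 peaks, the Spearman correlation of pooled signal with GC content was -0.15, given as a description since the peaks share their libraries.

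Short words of A and T were common at the summits. The 5 words used were those most over-represented at the other 1296 reproducible peaks, and were looked for on both strands. Of the intronic peaks, 258 held at least 1 of them within 50 bp of the summit (44.8%, 40.7 to 49.0), with 17.7% in their flanks, 25.0% at the other candidates and 24.0% at intron positions. The word AAAATAT was at 17.2% of the intronic peaks and 5.73% of their flanks. TAAAATA was at 13.7% and 4.17%, TATTTAA at 13.4% and 3.65%, TTAAAAA at 13.4% and 6.86%, and TTTAAAA at 12.8% and 3.82%. Among windows of like composition the difference was smaller. With a GC content below 30%, a word was held by 61.8% of peaks (55.5 to 67.8) and 57.9% of other candidates. From 40% of GC upwards the shares were 15.2% (8.58 to 24.2) and 9.97%. In each of the 4 composition bins the interval of the peaks contained the share of the other candidates.

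Some known motifs differed in share between the summit and its flanks. The E-box CACGTG was at 0.694% of the peaks (0.190 to 1.77), 2.00% of their flanks and 1.05% of the other candidates. The core CGATA of the insulator protein BEAF-32, on either strand, was at 10.2% of the intronic peaks (7.89 to 13.0), 9.64% of their flanks and 10.7% of the other candidates. TATCGATA, the site of the promoter factor DREF, which contains that core, was at 0 of 576 peaks, which allows a share of up to 0.638%, and at 0.260% of the other candidates. Some repeats were rarer at the summit than beside it, but not all. The run AAAAAAAA was at 9.20% of the peaks, 7.03% of their flanks and 9.14% of the other candidates. TATATATA was at 2.43%, 1.30% and 1.80%. The CA repeat CACACACA was at 0.694% of the peaks (0.190 to 1.77), 6.51% of their flanks and 2.96% of the other candidates. The GAGA factor word GAGAGAG, which also lies inside the GA repeat GAGAGAGA, was at 0.521% (0.108 to 1.51), 4.51% and 1.54%. With 100 bp on each side in place of 50 bp, GAGAGAG was at 3.30% of peaks and 3.03% of other candidates, so its order turned. A match is only the presence of these letters. Summits were poorer in GC than their flanks, and these motifs were not compared among windows of like composition.

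First introns held the largest share of the intronic peaks. Numbered in the longest transcript that holds the summit in an intron, 304 peaks were in intron 1 (52.8%, 48.6 to 56.9), 181 in intron 2 (31.4%) and 91 in a later one (15.8%). Of the other candidates 40.1% were in a first intron, and of intron positions taken every 200 bp 30.5%. The 576 strongest of the other candidates were at 52.1% (47.9 to 56.2), so the share did not separate the peaks from the candidates just below them. It fell with rank from 56.0% at ranks 1 to 500 to 36.7% at ranks 20001 to 28750. Within the peaks it was 59.0% in the 144 strongest by signal (85 peaks, 50.5 to 67.1) and 43.8% in the 144 weakest (63 peaks, 35.5 to 52.3). When an intron 1 of any transcript counted, the share was 71.9% for peaks and 55.7% for other candidates.

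The distance to the nearest TSS had a median of 2341.5 bp (2080 to 2639) and ran from 512 to 42340 bp. It was 3671 bp for the other candidates, 2730.5 bp (2408 to 3128) for the 576 strongest of them, and 5615 bp for intron positions. Of the peaks, 123 lay up to 1000 bp from a TSS (21.4%), 134 up to 2000 bp (23.3%), 163 up to 5000 bp (28.3%) and 156 farther away (27.1%). The 3 farthest were in *mamo* at 42340 bp, *Snoo*, a Ski/Sno family gene, at 34885 bp, and CG43759 at 32166 bp. First introns begin near a TSS, so the share was also taken at like distances. Up to 1000 bp it was 67.5% for peaks (58.4 to 75.6) and 57.5% for other candidates. Beyond 5000 bp it was 41.0% (33.2 to 49.2) and 27.4%. In the 2 bins between, it was 60.4% (51.6 to 68.8) against 53.0% and 46.6% (38.8 to 54.6) against 42.1%, and there the interval of the peaks contained the other share.

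**Figure D2:**
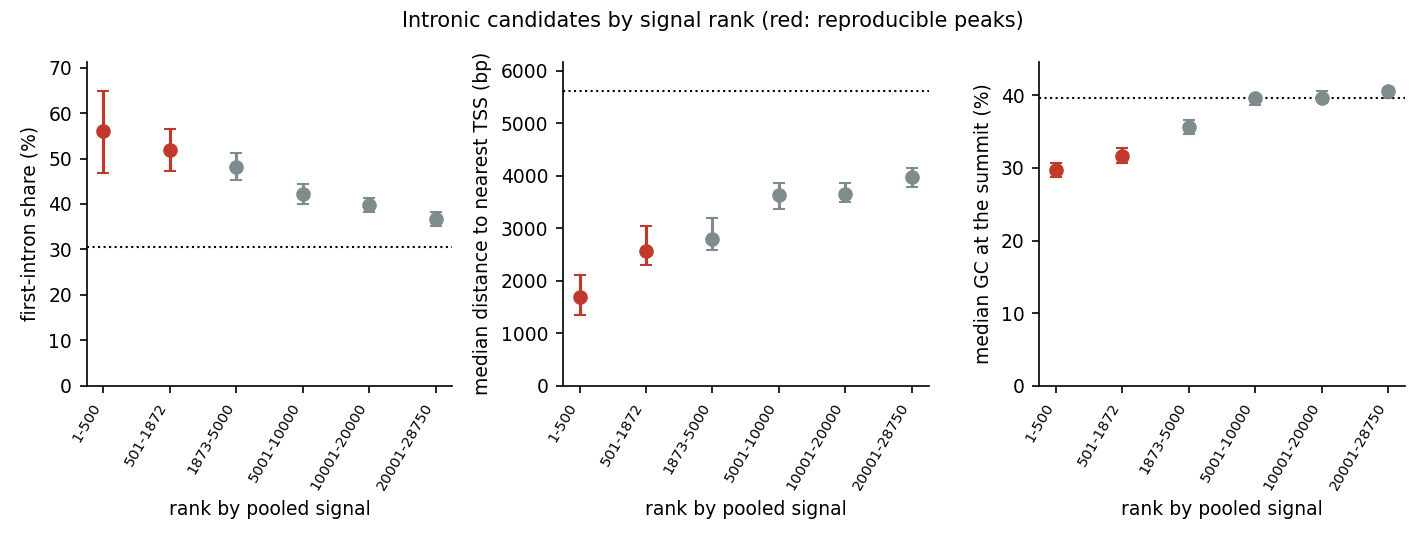
Intronic candidates in 6 bins of pooled signal rank: share in a first intron (%), median distance to the nearest TSS (bp) and median GC content within 50 bp of the summit (%), with 95% intervals. Red points are the reproducible peaks, grey points the other candidates, and the dotted line gives intron positions every 200 bp. All 3 measures move towards the dotted line with falling rank, on both sides of rank 1872.

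The introns that held the peaks were long, but no longer than those of the other candidates. Their median length was 11972.5 bp (10527 to 13361), against 12689 bp for the other candidates and 15340 bp for intron positions. Lengths ran from the 140 bp of the CG11050 intron to the 126467 bp intron 3 of *Ptp61F*, a tyrosine phosphatase gene, which held peaks with signals of 91.0 and 77.0. The intron of *kirre*, an adhesion gene of myoblast fusion, was next at 117679 bp. Introns of up to 1000 bp held 20 peaks (3.47%), 6.46% of the other candidates, 2.60% of their 576 strongest and 7.71% of intron positions. Peaks in first introns were in shorter ones, with a median of 9918 bp (8127 to 10800), than peaks in later introns, with 16920.5 bp (13544 to 18667). The other candidates had the same order, with medians of 11387 bp in first introns and 13735 bp in later ones. The median place within the intron was 0.425 of its length from the 5′ end (0.383 to 0.463), 0.483 for the other candidates and 0.446 for their 576 strongest.

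The gene around a peak was not always the gene with the nearest TSS. The nearest TSS belonged to the host for 441 peaks (76.6%, 72.9 to 80.0), for 63.6% of the other candidates, 73.4% of the 576 strongest of them and 54.8% of intron positions. In 169 peaks (29.3%) the intron also held a whole other gene, against 32.2% of the other candidates. Relative to the nearest TSS of the host, 149 peaks (25.9%, 22.3 to 29.6) lay upstream of it, in introns of longer transcripts, against 17.9% for the other candidates and 22.2% for their 576 strongest.

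The 576 peaks fell in 427 host genes, 418 of them protein-coding. Of the hosts, 331 held 1 peak, 66 held 2 and 30 held 3 or more, and 245 peaks (42.5%, 38.5 to 46.7) shared a host with another. The hosts were long: the median length was 18717 bp for hosts with 1 peak and 39359 bp (29872 to 48405) for those with several, against 11954.5 bp for genes with intronic candidates and no peak. In the same order, the median number of intronic candidates per gene was 5, 12 and 2. Hosts thus also had more candidates that could be peaks, and whether length matters beyond this was not tested. Neighbouring peaks of 1 gene were a median of 3659 bp apart (2460 to 5308). In 120 of 149 such pairs both lay in the same intron, 28 pairs were up to 1000 bp apart, and the regions of 11 pairs overlapped. The sharing of hosts and introns is given without a value for the other candidates. Whether peaks gather more than candidates do was therefore not tested. A peak at a promoter of the same gene was found for 102 of the 427 hosts (23.9%, 19.9 to 28.2) and for 289 of the 2294 genes with candidates and no intronic peak (12.6%), which are shorter.

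The most peaks lay in CG1677 (X:7281089-7405797), where 9 of 28 intronic candidates were reproducible. All 9 lay in 1 intron of 73902 bp that holds 9 other whole genes, and their signals ran from 56.8 to 138. Their nearest start sites were not those of CG1677. For 2 the nearest was that of *brk*, which encodes the repressor Brinker of the BMP pathway, at 809 and 608 bp, for 4 *unc-119*, for 2 CBP and for 1 CG42780. The 2 peaks near *brk* overlap and fell in the same region of each replicate. Replicate 2 alone placed 7 intronic regions of this gene among its 1872 strongest, and replicate 4 alone placed 8. With 1000 bp in place of 500 bp around each TSS, 5 remained.

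*Raf*, the MAP kinase kinase kinase below receptor tyrosine kinases, held 6 peaks of 14 candidates, all in its intron of 43637 bp (X:2295466-2343870). The strongest, with a signal of 243, ranked 71 in replicate 2 and 73 in replicate 4. The other 5 had signals from 54.4 to 104. Each replicate alone placed 4 regions there. *ush*, *Tlk* and *sbb*, a corepressor gene, held 5 peaks each, in 1 intron of each gene. In *ush* the strongest peak stood at 683, far above the other 4, at 67.0 to 82.9. In *Tlk* 1 peak stood at 355 and the others at 54.5 to 113, while in *sbb* they ran from 63.5 to 167.

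A further 8 genes held 4 peaks each, namely *Lrch*, *simj*, a subunit gene of the Mi-2/NuRD complex, *tara*, the forkhead gene *CHES-1-like*, the ecdysone-response nuclear receptor genes *Hr4* and *Eip75B*, *rdx*, a cullin-3 adaptor gene, and *apt*. The 4 peaks of *CHES-1-like* were alike in strength, at 135, 134, 121 and 152. Those of *Lrch* lay within 3486 bp of each other, with signals from 54.8 to 183, and 2 of them overlap. For some of these genes the number rested on 1 library or on the promoter window: replicate 2 alone gave 2 regions in *Lrch* and in *apt*, replicate 4 alone gave 2 in *Eip75B*, and 2 of the *CHES-1-like* peaks lay over 1000 bp from every TSS.

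**Figure D3:**
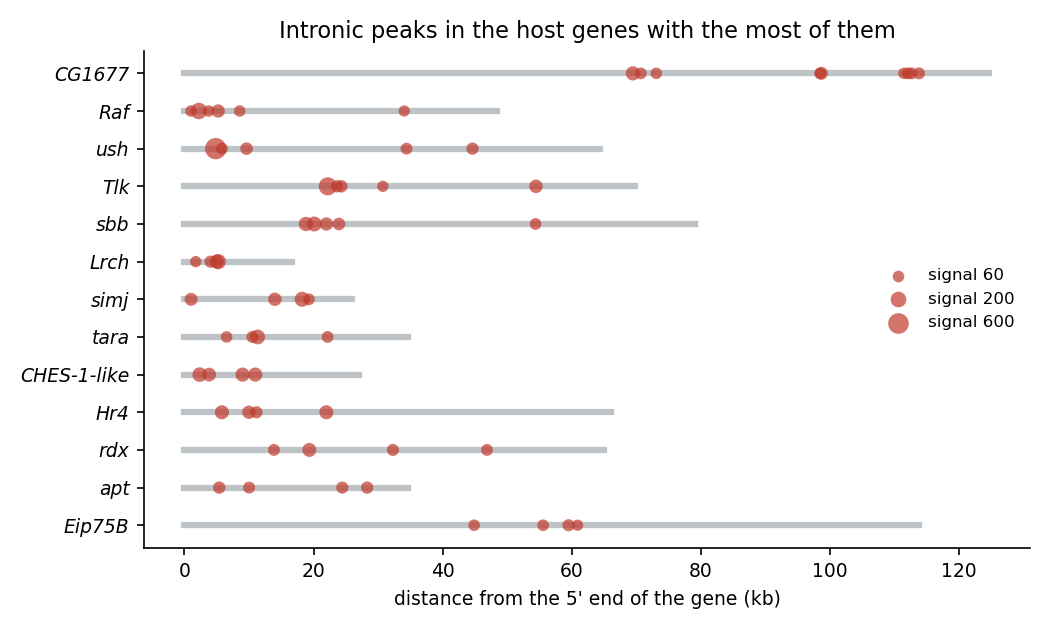
Position of the intronic peaks (circles, area growing with pooled signal) along the 13 host genes that hold 4 or more, as distance from the 5′ end of the gene (kb), with the gene drawn as a grey bar. The 4 peaks of *Lrch* and 5 of the 6 in *Raf* gather in the 5′ part of the gene, and those of CG1677 form 3 groups.

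Host genes were sorted into lists by function, of which 11 are given, and each list's share of reproducible peaks among its intronic candidates was set beside the 5.10% of all protein-coding genes (567 of 11112). Chromatin regulators had 9 peaks of 71 candidates (12.7%, 5.96 to 22.7), and 7 of 65 (10.8%, 4.44 to 20.9) without *trx*. They lay in *Trl*, *trx*, *Psc*, *ph-p*, *psq* and *dom*, genes of the Trithorax and Polycomb groups and of chromatin remodelling, with a signal of 319 in *Trl* and 218 in *trx*. The EGF and FGF receptor list had 18 of 161 (11.2%, 6.76 to 17.1), and 12 of 147 (8.16%, 4.29 to 13.8) without *Raf*, so that without 1 gene the interval of either list contained the 5.10%. Its hosts covered the ligands *vn* and *ths*, the adaptor *drk*, *Raf*, the nuclear effectors *pnt*, *aop* and *edl*, the secreted inhibitor *aos*, at 182, and *S*, which encodes the ligand chaperone Star, at 137. BMP and activin genes had 10 of 101 (9.90%, 4.85 to 17.5), among them the ligand *dpp* at 90.8, the receptor *wit* at 80.4, the effector *Mad* at 137, the inhibitor *Dad* at 106, and the extracellular modulators *cv-2* and *sog*.

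Other lists were near the share of all genes or below it. Nuclear receptors had 8 of 124 (6.45%), all in *Hr4* and *Eip75B*. Ion channels had 6 of 126 (4.76%), led by *KCNQ* at 129. Tissue and organ transcription factors had 14 of 320 (4.38%), 5 of them in *ush*, with *zfh1* at 150 and the epidermal factor *grh* at 126. Muscle genes had 7 of 165 (4.24%), led by *kirre* at 134. Notch, Wnt and Hedgehog genes had 10 of 237 (4.22%), with the receptor *fz* at 174 and *N* at 113. RNA-binding genes had 10 of 325 (3.08%, 1.49 to 5.59), and 2.44% (0.986 to 4.96) without *Rbfox1*, with *mub* at 129. Axon guidance and adhesion genes had 9 of 371 (2.43%, 1.12 to 4.55), and 2.10% (0.849 to 4.28) without *Sema1a*, with *Fas3* highest at 91.9. Segmentation and Hox genes had 1 of 72 (1.39%, 0.0352 to 7.50), a peak in *Abd-B* at 62.8. Candidates of 1 gene are not independent, so these intervals are too narrow for a statement about genes.

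**Figure D4:**
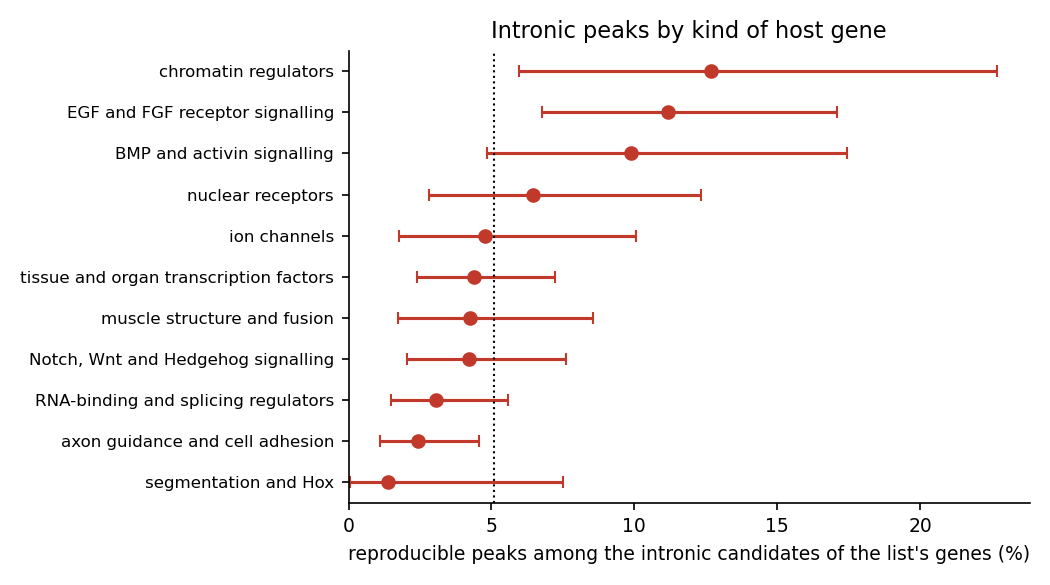
Reproducible peaks as a share (%) of the intronic candidates in the genes of each of 11 lists, with 95% exact binomial intervals. The dotted line is the 5.10% of all protein-coding genes, and the interval lies wholly above it for chromatin regulators and for EGF and FGF receptor signalling, in each case only with *trx* or *Raf* included, and wholly below it for axon guidance and adhesion.

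Nearly all of the intronic peaks were found in both replicates, though often at different ranks. The summit lay inside a region of both replicates for 567 of 576 peaks (98.4%, 97.1 to 99.3). The share was 28.2% for the other candidates and 89.4% for their 576 strongest. The pooled list was made from both libraries, so this share is not independent of the choice. The 9 exceptions lay in no region of replicate 2: they were in *vn*, *Mef2*, which encodes the myocyte enhancer factor and held 2 overlapping ones, *Rbfox1*, *apt*, *Pdk*, *NetB*, *osp* and *Gdh*. All 9 ranked between 400 and 1022 in replicate 4. Of the 576 peaks, 450 (78.1%) lay in one of the 1872 strongest regions of replicate 2, 489 (84.9%) in one of replicate 4, 372 (64.6%, 60.5 to 68.5) in both kinds, and 9 in neither.

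Ranks in the 2 replicates were correlated but differed widely for some peaks. The Spearman correlation of the ranks was 0.40 and the Pearson correlation of log2 signals 0.51 over 567 peaks, as descriptions. The peaks were chosen by a pooled signal from these same 2 libraries. The correlations therefore do not measure how well the replicates agree over all regions. In groups of 144 peaks from the strongest to the weakest pooled signal, 142, 121, 87 and 22 were among the 1872 strongest regions of both replicates, where the weakest group lies next to that rank by its choice. The labels tie each library to its own protocol document, a difference that cannot be told apart from the replicate. Ranks were better in replicate 2 for 279 peaks and in replicate 4 for 286. The peaks most shifted towards replicate 2 were in *fwe* (rank 553 against 9965), *Ten-a*, a teneurin gene (371 against 6354), and *PRAS40* (469 against 6874). Those most shifted towards replicate 4 were in MESR3 (28214 against 341), *cno*, which encodes the junction protein Canoe (1863 against 31), and the *ush* peak at 2L:510437-510832 (29916 against 616). In 13 peaks the replicate region was shared with another reproducible peak, in replicate 2 and likewise in replicate 4. One of the weakest peaks, in *Cyt-c-p*, ranked 1864 in the pooled list, while its summit lay in replicate regions that ranked 201 and 280. A rank matched in this way can belong to a stronger neighbouring peak.

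**Figure D5:**
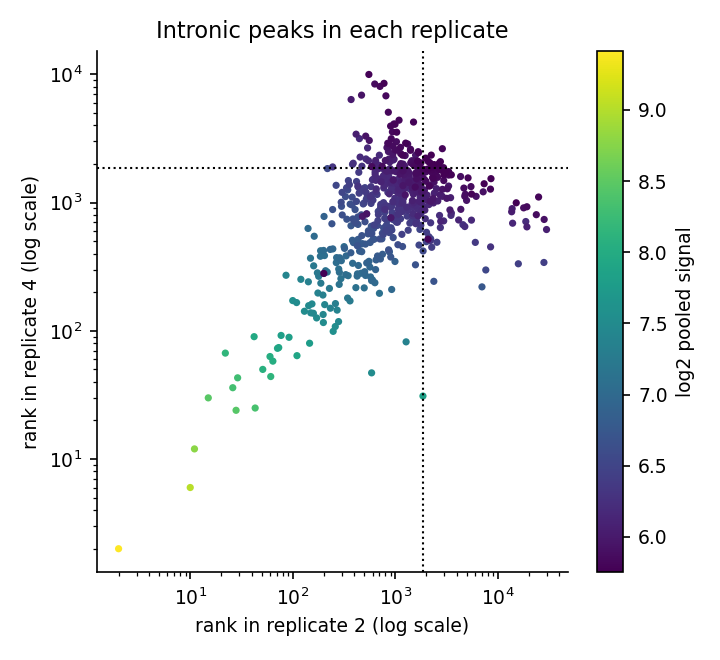
Rank in replicate 2 against rank in replicate 4 (both log scales) for the 567 intronic peaks found in both, coloured by log2 pooled signal. Dotted lines mark rank 1872; 372 peaks lie inside both.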

How the data were processed

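ChIP-seq libraries of biological replicates 2 and 4 (1 group) were analysed from peak lists that the authors deposited in narrowPeak format on dm6. Per the deposited read-me files, the replicate lists were made with 1 control alignment, the pooled list from both replicates, and the reproducible list by the irreproducible discovery rate. The aligner, the caller and the cut-off were not given in the sources used here. Signal values, as deposited and of unstated scale, were used to rank and describe regions within a list. Each dm6 replicate list holds 30000 regions and the pooled list 28750. The dm3 lists and the control library were not used here.

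Genes for placing the summits came from Ensembl release 115, on the dm6 assembly, without transposable elements. The host was the protein-coding gene, and then the shortest, around the summit. Its longest transcript with the summit in an intron numbered the intron. A replicate matched when the summit lay inside one of its regions, the strongest if several. Sequence came from the RefSeq genome of the same assembly. Python 3.11.15, numpy 2.4.6, pandas 2.3.3, scipy 1.17.1 and matplotlib 3.10.9 were used. Shares have exact (Clopper-Pearson) 95% intervals and medians 95% order-statistic intervals. No p-values were computed. The functions were tested on simulated data.

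The members, the 12 gene lists (409 genes, all matched; 1 list is not reported here) and the motifs were chosen with earlier results of these data known. Genes named are the hosts of the 12 strongest peaks, those with most peaks, the 3 longest introns, 3 farthest peaks and 3 most shifted to each replicate, the weakest peaks and some candidates just outside the list, and list members. Genes of peaks in no region of replicate 2 were picked with their values in view. The alternatives tried were other TSS windows (250 and 1000 bp), the 936 strongest peaks, single replicates, midpoints, other transcripts, exons and overlaps, and other windows. Composition, rank and distance bins, intron positions every 200 bp and the omission of CG1677 were added after seeing the data.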

Additional observations from a re-analysis of the deposited data

How the results depend on the processing

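Of 59 alternative values of the main results, 43 stayed within the interval of the main value or, for the number of peaks, within 1.5 times of it. The 3 that set the peaks beside the 576 strongest other candidates changed only the comparison. Among these main results, no difference from a comparison set changed sign. Depth is unknown, and with 2 libraries the spread between embryo collections cannot be estimated. No paired analysis was possible because there is 1 group. Values from 1 replicate alone used its 1872 strongest regions, a total set to that of the reproducible list, with no call of reproducibility. There the number of intronic regions was 571 to 585, the first-intron share 53.1% to 53.2% and the median intron length 11430 to 11945 bp. The median distance to a TSS was 2298 to 2311 bp and the share nearest the host's TSS 75.9% to 76.2%. The share in hosts with several was 38.5% to 44.6% and the GC content 30.7% to 33.7%. The cause of the moves below was not tested. By construction, the TSS window cuts the distances and longer windows hold more words. The share in hosts with several also depends on the number of peaks kept. The median distance was 1738 bp with a TSS window of 250 bp and 3353 bp with 1000 bp, where the intron length was 13521 bp. The 936 strongest peaks held 262 members, with 59.2% in first introns, a length of 10379.5 bp, a distance of 1928 bp and 26.0% in hosts with several. The first-intron share was 71.9% over any transcript and 65.6% over the shortest, with a length of 10377 bp. With a reciprocal overlap of 50%, 94.4% were in both replicates. GC content was 34.8% within 100 bp, and the share with an A and T word 32.6% within 30 bp and 62.3% within 100 bp. The order of peaks and other candidates turned for CGATA (21.4% within 100 bp), GAGAGAG (3.30% within 100 bp), TGANTCA (1.22% within 30 bp), the run of 8 A (17.0% within 100 bp) and TATATATA (1.04% within 30 bp).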

Other observations

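Of the arms, X had the highest share of reproducible peaks among intronic candidates. On X it was 6.78% (138 of 2036, 95% exact interval 5.72 to 7.96), against 4.59% on 2L, 5.12% on 2R, 4.72% on 3L and 4.84% on 3R. On arm 4, 0 of 172 candidates were reproducible, which allows a share of up to 2.12%. CG1677, *Raf*, *Tlk*, *CHES-1-like* and *Hr4*, all with 4 or more peaks, lie on X. The embryos were of mixed sex, and a part of the number of X chromosomes in these values was not tested.

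The host was protein-coding for 98.4% of the 576 peaks, 98.1% of the other intronic candidates and 97.7% of intron positions every 200 bp. The rule for the host puts protein-coding genes first. Of the 9 peaks with another kind of host, 8 lay in introns of non-coding RNA genes and 1 in a pseudogene. The strongest of these was in lncRNA:CR44810, with a signal of 124. Of the 576 intronic peaks 538 had the common width of 396 bp and the narrowest was 111 bp, while all other intronic candidates had that width. Promoter and intergenic peaks also held narrow regions, down to 99 and 100 bp. Width and pooled signal had a Spearman correlation of -0.42 over the 576 peaks, and the strongest peak, in *ush*, was 336 bp wide. All peaks narrower than 396 bp were among the 144 strongest by signal, so the correlation rests on them.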
